A study of Mus musculus with 20 samples.

Results

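The miR-99, miR-100 and miR-125 family was followed in the mouse ascending aorta as 5 mature microRNAs (miRNAs), which are short RNAs that pair with messenger RNAs and reduce the protein made from them. On the array they are named mmu-miR-99a-5p, mmu-miR-99b-5p, mmu-miR-100-5p, mmu-miR-125a-5p and mmu-miR-125b-5p, and the species prefix is left out below. They were taken by name from the 1881 mature miRNAs on the array, with earlier results of these data known. All 5 were above background on all 20 arrays, and all 5 were among the 609 miRNAs tested. The animals were male double knockouts, with the genotype written as Apobtm2Sgy/Ldltm1Her in the labels. Every group, week 0 included, carried both alleles, so no wild-type aorta was compared. High fat diet was given for 6, 18 or 30 weeks (3 arrays at each time), and chow for the same 6, 18 or 30 weeks (3 arrays at each time) or for 0 weeks (2 arrays). The labels name the tissue as ascending aorta carrying an atherosclerotic lesion, also at week 0, and their age field repeats the weeks of feeding, so the animals' age when feeding began is not given in the sources used here. Nothing in the labels says that replicates came from separate animals, so p-values measure the spread between arrays of a group, which may be technical.

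As background, a miRNA finds its targets mainly through its seed, the bases 2 to 8 from its 5′ end, and miRNAs with one seed form a family. The genes of this family lie in 3 clusters, each with a miR-99 or miR-100 gene, a let-7 gene and a miR-125 gene, so that members with different seeds can come from one primary transcript. miR-99 and miR-100 are known to repress the growth kinase mTOR, and miR-100 does so in vascular cells. miR-125a-5p has been described as a brake on lipid uptake in human macrophages, and miR-125b-5p as a brake on bone-like conversion of human coronary smooth muscle cells.

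The mature sequences are shown because the seeds divide the 5 miRNAs into a pair of families and because some members differ by so few bases that a probe could bind more than one. They are given 5′ to 3′ from the RefSeq table (assembly GRCm38.p6), where all 5 matched by name, with the seed in capitals.
miR-99a-5p: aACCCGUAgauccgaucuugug
miR-100-5p: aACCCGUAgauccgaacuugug
miR-99b-5p: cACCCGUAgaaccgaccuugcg
miR-125a-5p: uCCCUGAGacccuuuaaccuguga
miR-125b-5p: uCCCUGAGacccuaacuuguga

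The first 3 share one seed, which no other mouse miRNA of that table carried. The seed of miR-125a-5p and miR-125b-5p was carried by 5 entries of that table, one of them miR-351-5p, which was above background on 0 of 20 arrays. Counted from the 5′ end, miR-99a-5p and miR-100-5p differ at 1 base (U16A), and miR-99a-5p and miR-99b-5p differ at 4 bases (A1C, U11A, U16C and U21C), 1 of them before the seed and 3 after it. miR-125a-5p has 24 bases and miR-125b-5p 22, and the first 13 bases of the pair are identical.

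Mir100 lies with Mirlet7a-2 and Mir125b-1 on chromosome 9, inside the span of the long noncoding RNA gene Mir100hg. Mir99a lies with Mirlet7c-1 and Mir125b-2 on chromosome 16, where no other gene of the table spans them. Mir99b, Mirlet7e and Mir125a lie within 0.69 kb of chromosome 17, inside the span of the protein-coding gene Spaca6, whereas the other clusters extend over 50.58 kb on chromosome 9 and 47.41 kb on chromosome 16. The mature miR-125b-5p is the same from both of its genes, so its level is a sum over chromosomes 9 and 16.

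Each member was read by 2 probes that pair with the 3′ part of the miRNA. The longer probes are shown because they cover most of the bases at which members of one seed differ, though not base 1. Capitals mark the bases complementary to the miRNA, which here is the whole probe, 5′ to 3′.
miR-99a-5p probe: CACAAGATCGGATCTACGG
miR-100-5p probe: CACAAGTTCGGATCTACGG
miR-99b-5p probe: CGCAAGGTCGGTTCTA
miR-125a-5p probe: TCACAGGTTAAAGGGTCTC
miR-125b-5p probe: TCACAAGTTAGGGTCTC

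The files place the first of these at chr16:77599189-77599206, the second at chr9:41339524-41339541 and the third at chr17:17967165-17967179 in mouse build mm9, with the ends as listed there, and give the miR-125 probes as unmapped. The miR-99a-5p and miR-100-5p probes of 19 bases pair with bases 4 to 22 of their miRNA and therefore cover the single base at which the pair differs. How much each miRNA bound to the other's probe was not tested. The 2 probes of a member varied together over the 20 arrays, with r from 0.96 for miR-125b-5p to 0.99 for miR-99a-5p. Levels are given below as log2 of the array signal after scaling, for one member at a time, because probes differ in brightness and the level of one miRNA cannot be set against that of another.

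The arrays were not equally informative, and their number limits the precision of every value. Between 316 and 742 miRNAs were detected per array, and the 4 lowest counts were 316 on chow replicate 1 of week 18 and 328, 345 and 355 on single high fat arrays of weeks 18 (replicate 3), 6 (replicate 3) and 30 (replicate 1). The arrays lay on 3 slides: slide 1 held weeks 0 and 6, slide 2 held week 18 and week 30 chow with high fat replicates 1 and 2 of week 18, and slide 3 held the third high fat array of week 18 and all 3 of week 30. Over the miRNAs detected everywhere, the SD of the log2 difference was 0.18 for high fat replicates 2 and 3 of week 30, and 0.28 for chow replicates 1 and 2 of week 6, where the median over all within-group pairs was 1.02. The third high fat array of week 18 and the second of week 30, which carry different labels, differed with an SD of 0.19. On that week 18 array the SD of the negative controls was 22.3, against at most 2.53 on the other arrays. For 8 arrays the slide position in the description was not that in the file, and for both replicate 1 arrays of week 18 the described position would exchange the diets. Among aortic markers, the smooth muscle miRNAs miR-143-3p and miR-145a-5p and the endothelial miR-126a-3p were above background on all 20 arrays. In whole tissue, fewer cells of a type and less RNA per cell cannot be told apart.

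**Figure D1:**
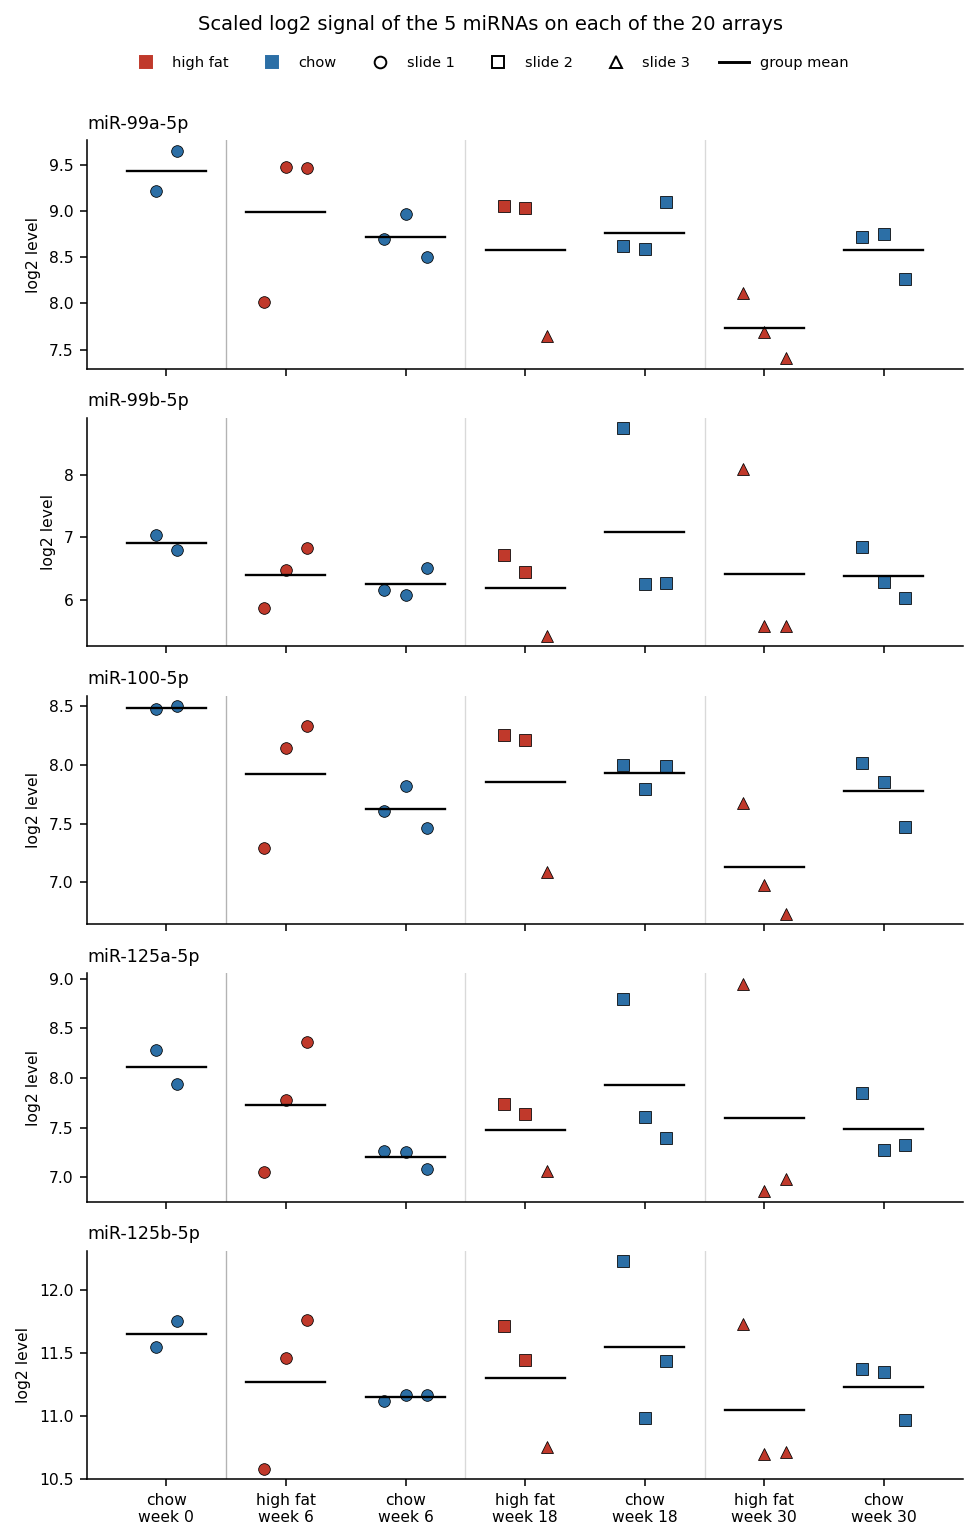
Scaled log2 level (y axis) of each of the 5 miRNAs on every array, in groups by diet and week (x axis), with high fat in red, chow in blue, the marker shape giving the slide and the bar giving the group mean. The week 0 chow arrays lie above all week 6 chow arrays in every panel, and single arrays of week 18 chow and week 30 high fat lie far above their groups for miR-99b-5p and miR-125a-5p.

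The clearest common pattern lay in chow-fed aortas, where all 5 members were lower at week 6 than at week 0 on every array, although none passed the test. The question of this comparison is what changed with the first weeks of the time course when the diet did not. miR-100-5p had 7.61, 7.82 and 7.46 at week 6, against 8.48 and 8.50 at week 0, a log2 difference of -0.86 (SE 0.45, 95% interval -1.81 to 0.08, limma adjusted p = 0.228). miR-125a-5p had 7.26, 7.26 and 7.09 at week 6, against 8.29 and 7.94 at week 0, a difference of -0.91 (SE 0.59, interval -2.16 to 0.33, limma adjusted p = 0.375). In both miRNAs the groups did not overlap, yet the intervals include 0. miR-99a-5p had 8.70, 8.97 and 8.50 at week 6, against 9.22 and 9.65 at week 0 (difference -0.71, SE 0.51). miR-99b-5p had 6.16, 6.08 and 6.51 at week 6, against 7.03 and 6.80 at week 0 (difference -0.66, SE 0.77). miR-125b-5p, the member with the smallest difference here, had 11.12, 11.17 and 11.17 at week 6, against 11.55 and 11.76 at week 0 (difference -0.50, SE 0.48).

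Thus 5 of 5 members were lower at week 6 with no overlap between the groups, while 12.3% of all tested miRNAs (75 of 609) were lower without overlap and 308 of 609 were higher without overlap. These shares were counted with the main scaling only, the 75th percentile among the miRNAs detected on all arrays. The members varied together over the arrays, so 5 of 5 is not 5 separate agreements. The median difference was -0.71 over the members and 0.58 over all 609 miRNAs. The second value turned with scaling: it was -0.51 with the 75th percentile over all miRNAs and -0.16 with quantile normalization, where the members' medians were -2.17 and -1.49. By the adjusted test, 0 of 5 members were called, against 20.4% of all miRNAs (123 higher and 1 lower). That split was 28 higher and 60 lower with the 75th percentile over all miRNAs, and 14 higher and 15 lower with quantile normalization. The 5 differences stayed negative under all alternatives that gave this comparison, including the 4 other ways of scaling or background correction. With only the week 6 and week 0 chow arrays in the fit, 3 members were called, miR-100-5p and miR-125a-5p (limma adjusted p = 0.0139 each) and miR-125b-5p (limma adjusted p = 0.0322), beside 230 of 609 miRNAs (37.8%) in that fit, on a spread that included the near-identical replicates 1 and 2 of week 6.

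Markers of other cells moved over the same step. The summed level of the 4 leukocyte miRNAs (2 of them above background on all 20 arrays) was 11.30 to 11.86 at week 6 against 9.30 to 10.92 at week 0 in chow, without overlap. The summed level of the 4 smooth muscle miRNAs was 10.10 to 10.51 at week 6 against 10.78 to 11.24 at week 0, also without overlap, and that of the endothelial pair was 10.88 to 11.54 at week 6 against 11.71 to 12.38 at week 0. The 3 neuronal miRNAs summed to 9.11 to 9.82 at week 6 against 6.03 to 6.11 at week 0, and the 7 epithelial ones to 9.24 to 10.91 at week 6 against 7.11 to 7.31 at week 0, both higher without overlap, with miR-124-3p and miR-9-5p, which mark neurons, above background on 1 of the 20 arrays each. Of the 7 epithelial miRNAs, 1 to 2 were above background on the week 0 arrays and 7 on the week 6 chow arrays. The 3 fibroblast miRNAs summed to 9.30 to 9.57 at week 6 against 9.91 to 10.06 at week 0, and the 4 listed for fat to 11.12 to 11.49 at week 6 against 11.71 to 12.56 at week 0, both lower without overlap. The red blood cell, striated muscle and GC-rich lists overlapped. Their part in the differences of the members was not tested.

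The high fat means at week 6 lay between these chow means for all 5 members. miR-100-5p had 7.29, 8.15 and 8.33 in high fat aortas at week 6, against 8.48 and 8.50 in chow aortas at week 0, the member whose groups did not overlap (difference -0.56, SE 0.45, limma adjusted p = 0.627). The other 4 members also had negative differences, from -0.38 for miR-125a-5p to -0.52 for miR-99b-5p, with overlapping groups. In this step 1 of 5 members was lower without overlap against 4.93% of all tested miRNAs, and the limma test called 0 of 5 members and 0% of all miRNAs, with 45 of 609 at an unadjusted p under 0.05.

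At week 6 the diet comparison asks for an early response to fat in the lesion. The mean of each of the 5 members was above that of chow in the high fat group, by 0.12 to 0.53, and none passed the test. miR-125a-5p had 7.05, 7.78 and 8.36 in high fat aortas, against 7.26, 7.26 and 7.09 in chow aortas, a difference of 0.53 (SE 0.53, 95% interval -0.58 to 1.64, limma adjusted p = 0.778). miR-99a-5p had 8.02, 9.48 and 9.47 in high fat aortas, against 8.70, 8.97 and 8.50 in chow aortas (difference 0.27, SE 0.46). For both, high fat replicate 1 was below every chow array and replicates 2 and 3 were above them. The same held for miR-100-5p, at 7.29, 8.15 and 8.33 in high fat against 7.61, 7.82 and 7.46 in chow, and for miR-125b-5p, at 10.58, 11.46 and 11.76 in high fat against 11.12, 11.17 and 11.17 in chow. miR-99b-5p had 5.88, 6.47 and 6.82 in high fat, against 6.16, 6.08 and 6.51 in chow. The limma test called 0 of 5 members, against 2.96% of all miRNAs, all of those lower in high fat. The median difference was 0.27 over the members and -0.11 over all miRNAs, the second of which was 0.30 with the 75th percentile over all miRNAs, 0.14 with quantile normalization and 0.15 unscaled. Of the 10 marker lists, 2 did not overlap: the red blood cell markers summed to 10.77 to 12.12 in high fat and 12.46 to 13.09 in chow, and the neuronal markers to 5.48 to 6.73 in high fat and 9.11 to 9.82 in chow. On each of these arrays only 1 of the 3 neuronal miRNAs was above background. The part of the marker lists in the values of the members was not tested.

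At week 18 the members had lower means in high fat than in chow, by 0.08 to 0.89, with overlapping groups. miR-99b-5p had 6.72, 6.45 and 5.42 in high fat aortas, against 8.74, 6.25 and 6.27 in chow aortas, a difference of -0.89 (SE 0.68, 95% interval -2.33 to 0.55, limma adjusted p = 0.954). A single array on each side carried this value: chow replicate 1 was higher than every other array of the series for this miRNA, and high fat replicate 3, the array with the wide negative controls, was lower than every other array. Without chow replicate 1 the difference was -0.06, and within slide 2, which lacks high fat replicate 3, it was -0.50. miR-125a-5p behaved alike, with 7.74, 7.64 and 7.06 in high fat against 8.80, 7.60 and 7.40 in chow (difference -0.45, and -0.02 without chow replicate 1).

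miR-99a-5p had 9.06, 9.04 and 7.65 in high fat at week 18, against 8.62, 8.59 and 9.09 in chow, and miR-100-5p had 8.26, 8.22 and 7.09 in high fat, against 8.00, 7.80 and 7.99 in chow. Their differences of -0.19 and -0.08 were 0.28 and 0.31 within slide 2, where high fat replicate 3 is absent. miR-125b-5p had 11.71, 11.45 and 10.76 in high fat, against 12.23, 10.99 and 11.44 in chow (difference -0.25, and 0.03 within slide 2). Left unscaled, all 5 differences at week 18 were positive, and with the diets of both replicate 1 arrays exchanged those of miR-99b-5p, miR-125a-5p and miR-125b-5p were. The limma test called 0 of 5 members and 0% of all miRNAs, with 7 of 609 at an unadjusted p under 0.05. The median difference was -0.25 over the members and 0.26 over all miRNAs, the second of which was -0.39 with normexp background correction, -0.15 with the 75th percentile over all miRNAs and -0.04 with quantile normalization.

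At week 30 the members differed in direction, and none passed the equally weighted test. miR-99a-5p had 8.11, 7.69 and 7.40 in high fat aortas, against 8.72, 8.75 and 8.27 in chow aortas, a difference of -0.84 (SE 0.46, 95% interval -1.81 to 0.12, limma adjusted p = 0.285). Its groups did not overlap, as was true, with high fat lower, for 25.5% of all tested miRNAs, so 1 of 5 members is near the background. miR-100-5p had 7.68, 6.98 and 6.73 in high fat, against 8.01, 7.86 and 7.47 in chow (difference -0.65, SE 0.40, limma adjusted p = 0.322), and a single high fat array overlapped the chow range. miR-125b-5p had 11.73, 10.70 and 10.72 in high fat, against 11.37, 11.35 and 10.97 in chow (difference -0.18, SE 0.43).

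miR-99b-5p had 8.09, 5.59 and 5.59 in high fat at week 30, against 6.85, 6.29 and 6.03 in chow, a difference of 0.03 (SE 0.68). miR-125a-5p had 8.95, 6.86 and 6.98 in high fat, against 7.85, 7.27 and 7.32 in chow (difference 0.11, SE 0.53). For both, high fat replicate 1 lay above every chow array and the other two below. Without that array the differences were -0.80 for miR-99b-5p, -0.56 for miR-125a-5p, -0.52 for miR-125b-5p, -0.93 for miR-100-5p and -1.03 for miR-99a-5p, none called by limma.

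All week 30 high fat arrays lay on slide 3 and all week 30 chow arrays on slide 2. The 4 arrays of slide 3 had miR-99a-5p between 7.40 and 8.11, below all 8 arrays of slide 2 (8.27 to 9.09), and the week 18 high fat array of slide 3, at 7.65, was as low as those of week 30. With slide as a fixed block, the week 30 difference of miR-99a-5p was 0.55 and that of miR-100-5p 0.50, values that rest on that one week 18 array, which was itself near-identical to a week 30 array. Week 30 diet and slide therefore cannot be told apart for these members. Limma with array weights called 4 members lower in high fat, miR-99a-5p (-0.97, adjusted p = 0.00646), miR-100-5p (-0.87, adjusted p = 0.00498), miR-99b-5p (-0.78, adjusted p = 0.0369) and miR-125b-5p (-0.52, adjusted p = 0.0466), along with 269 of 609 miRNAs in all, in a fit whose weights were 0.230, 11.3 and 4.12 for the 3 high fat arrays and so rested mostly on the near-identical replicates 2 and 3. The estimation of those weights stopped before it converged. The equally weighted limma test called 0 of 5 members and 0% of all miRNAs at week 30, with 114 of 609 at an unadjusted p under 0.05. Leukocyte markers summed to 7.62 to 8.79 in high fat and 8.62 to 9.05 in chow at week 30, and smooth muscle markers to 10.35 to 11.26 in high fat and 10.83 to 11.01 in chow, so both overlapped. Of the 10 marker lists, 3 did not overlap at week 30: the ribosomal RNA derived or GC-rich entries summed to 12.96 to 13.27 in high fat and 11.78 to 12.18 in chow, the epithelial markers to 6.26 to 6.40 in high fat and 6.93 to 10.55 in chow, and the neuronal markers to 4.96 to 5.25 in high fat and 5.39 to 5.56 in chow. On these high fat arrays 0 to 5 of the 7 epithelial and 0 to 1 of the 3 neuronal miRNAs were above background. On the chow arrays these were 1 to 7 and 1, so the sums of both lists include undetected miRNAs. The part of the marker lists in the values of the members was not tested.

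The mean diet effect over weeks 6, 18 and 30 was within its error of 0 for every member, from -0.25 for miR-99a-5p (SE 0.26, 95% interval -0.81 to 0.30) to 0.06 for miR-125a-5p (SE 0.31, interval -0.58 to 0.71). The limma test called 0 of 5 members, against 0.164% of all miRNAs. The moderated F test of a change of the diet effect over the 3 times called 0 of 5 members, against 0.985% of all miRNAs, with the lowest adjusted p among the members 0.56 for miR-99a-5p. The test for any difference among the 7 groups called 0 of 5 members, against 10.7% of all miRNAs, and came nearest for miR-99a-5p (adjusted p = 0.172). The intervals of the diet effects at single weeks, which run to more than 1 log2 unit on at least 1 side for most members, leave room for differences of that size.

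**Figure D2:**
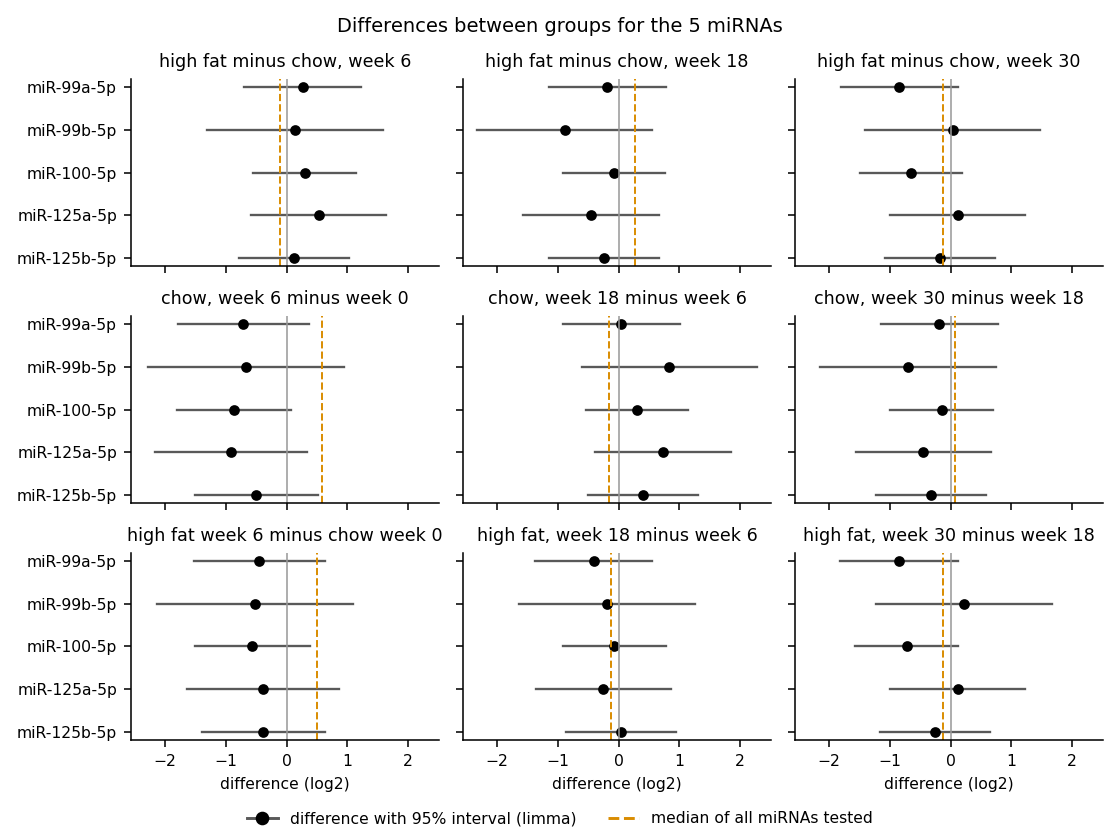
Difference of log2 level (x axis) for each of the 5 miRNAs (y axis) in 9 comparisons, as points with 95% limma intervals, the dashed line marking the median of all 609 miRNAs tested. All 5 points lie below 0 for chow week 6 minus week 0, where the median of all miRNAs lies at 0.58, and every interval in the 9 panels includes 0.

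After week 6 the chow means were higher again, without a call. From week 6 to week 18 in chow all 5 differences were positive, from 0.05 for miR-99a-5p to 0.83 for miR-99b-5p. miR-125a-5p had 8.80, 7.60 and 7.40 at week 18, against 7.26, 7.26 and 7.09 at week 6, the member whose groups did not overlap (difference 0.73, SE 0.53, limma adjusted p = 0.397). Without week 18 chow replicate 1 its difference was 0.30 and that of miR-99b-5p 0.01. Here 1 of 5 members was higher without overlap against 1.97% of all tested miRNAs, and the limma test called 0 of 5 members against 16.4% of all miRNAs, all of those lower at week 18. Slide 1 held week 6 and slide 2 held week 18 chow, so time and slide cannot be told apart in this step.

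The later steps were not called either. From week 18 to week 30 in chow, differences ran from -0.15 for miR-100-5p to -0.70 for miR-99b-5p. Without week 18 chow replicate 1 that of miR-99b-5p was 0.13, that of miR-125a-5p -0.02 and that of miR-125b-5p 0.02, and left unscaled all 5 were positive (0.21 to 0.76). The limma test called 0 of 5 members and 0% of all miRNAs (6 of 609 at an unadjusted p under 0.05). In high fat from week 6 to week 18 the differences ran from -0.41 for miR-99a-5p to 0.04 for miR-125b-5p. The limma test called 0 of 5 members and 0% of all miRNAs (61 of 609 at an unadjusted p under 0.05). Left unscaled all 5 were positive, with a median of 0.60. Week 6 lay on slide 1 and week 18 high fat on slides 2 and 3, so time and slide cannot be told apart in this step. In high fat from week 18 to week 30, miR-99a-5p differed by -0.85 (SE 0.46, limma adjusted p = 0.809) and miR-100-5p by -0.72 (SE 0.40, limma adjusted p = 0.809), while miR-99b-5p differed by 0.22 (SE 0.68). All week 30 arrays of this step lay on slide 3 and 2 of the 3 week 18 arrays on slide 2, and within slide 3, which holds a single week 18 array, the differences were 0.08 for miR-99a-5p and 0.04 for miR-100-5p. Time and slide therefore cannot be told apart here beyond that one array. The limma test called 0 of 5 members and 0% of all miRNAs in that step (18 of 609 at an unadjusted p under 0.05).

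Week 0 had the highest group mean for 4 of 5 members, while the lowest group differed between members. miR-99a-5p averaged 9.44 ± 0.30 (SD, n = 2) at week 0, the highest of its 7 groups, and 7.73 ± 0.35 (SD, n = 3) in week 30 high fat, the lowest. miR-100-5p had the same extremes, at 8.49 ± 0.02 (SD, n = 2) and 7.13 ± 0.49 (SD, n = 3). Week 0 was also the highest group for miR-125a-5p (8.11 ± 0.24, SD, n = 2) and miR-125b-5p (11.65 ± 0.15, SD, n = 2), whereas for miR-99b-5p week 18 chow was highest (7.09 ± 1.43, SD, n = 3) by way of its replicate 1. The lowest group was also week 30 high fat for miR-125b-5p (11.05 ± 0.59, SD, n = 3), but week 6 chow for miR-125a-5p (7.20 ± 0.10, SD, n = 3) and week 18 high fat for miR-99b-5p (6.20 ± 0.69, SD, n = 3). Week 0 lay on slide 1 and week 30 high fat on slide 3. For miR-99a-5p, miR-100-5p and miR-125b-5p, group and slide therefore cannot be told apart between these extremes. The week 18 high fat array of slide 3 was low as well, at 7.65 for miR-99a-5p and 7.09 for miR-100-5p. The other groups of miR-99a-5p averaged 8.58 to 8.99, with SDs of 0.23 to 0.84, so neighbours in that order do not differ beyond their spread. For miR-125b-5p all 7 group means lay within 0.60 of one another, with SDs of up to 0.63.

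Over the 20 arrays some members varied together more closely than others. miR-99a-5p and miR-100-5p, which share a seed but lie on chromosomes 16 and 9, correlated with r = 0.94. This pair differs at 1 base, and how much binding to each other's probes adds to that r was not tested. miR-99b-5p and miR-125a-5p, which have different seeds and lie in the same cluster on chromosome 17, correlated with r = 0.92. miR-99a-5p and miR-99b-5p, which share a seed, correlated with r = 0.36. These correlations describe arrays that share slides and scaling, and they carry no test.

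That contrast between pairs rested on 2 arrays, the first chow replicate of week 18 and the first high fat replicate of week 30. There miR-99b-5p was at 8.74 and 8.09, against at most 7.03 on the other 18 arrays (mean 6.29, SD 0.47), and miR-125a-5p was at 8.80 and 8.95, against at most 8.36. miR-99a-5p, at 8.62 and 8.11, and miR-100-5p, at 8.00 and 7.68, were inside the range of the other 18 arrays. miR-125b-5p, at 12.23 and 11.73, was above the other 18 on the first of these arrays only. On the 18 remaining arrays the r of miR-99a-5p with miR-99b-5p was 0.85, that of miR-99b-5p with miR-125a-5p was 0.87, and that of miR-99a-5p with miR-100-5p was 0.96. Without the 4 arrays with the fewest detected miRNAs these were 0.80, 0.89 and 0.95 over 16 arrays. The 2 arrays left out of the 18 had the lowest scaling divisors of the 20, 0.236 and 0.327. Those of the other 18 arrays were 0.460 to 2.13, so scaling raised every miRNA most on the 2 arrays. Left unscaled, r over 20 arrays was 0.50 for miR-99a-5p with miR-99b-5p, 0.82 for miR-99b-5p with miR-125a-5p and 0.97 for miR-99a-5p with miR-100-5p. The part of scaling in these high values was not tested.

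**Figure D3:**
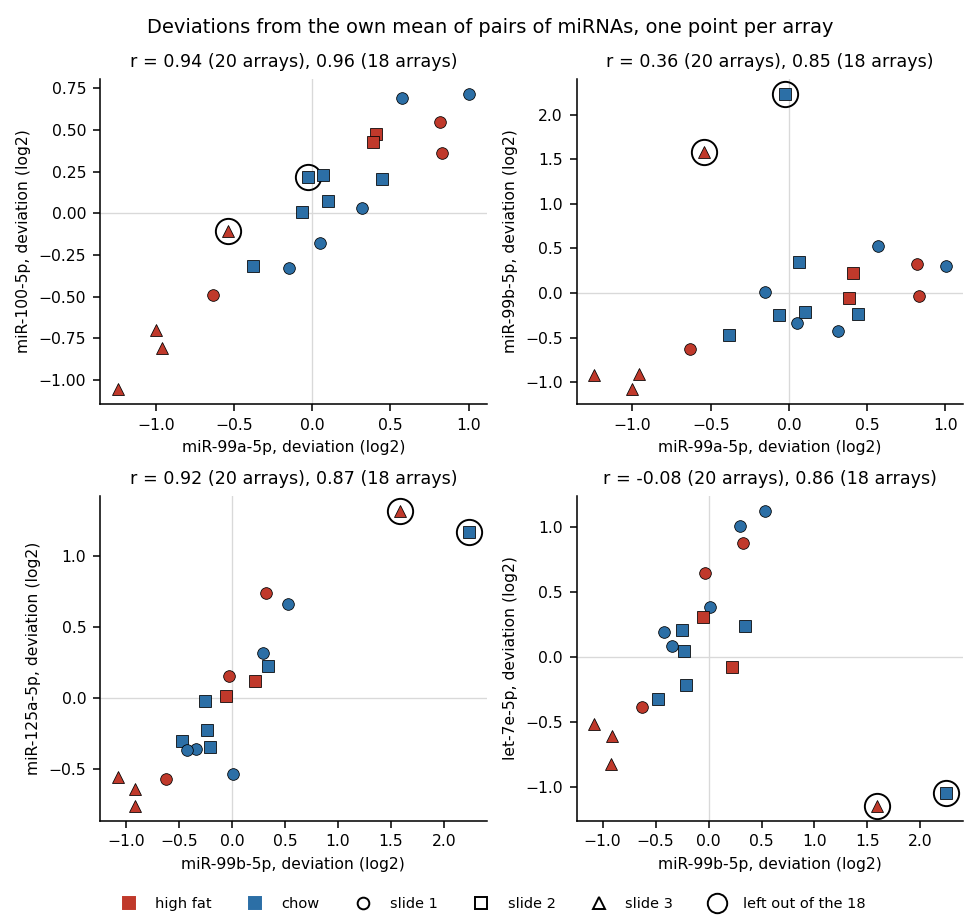
Deviation of each miRNA from its own mean over the 20 arrays (log2, both axes) for 4 pairs, 1 point per array, with high fat in red, chow in blue, the shape giving the slide and a ring around the 2 arrays left out of the 18. The ringed arrays lie nearer the trend of the other arrays for miR-100-5p with miR-99a-5p and for miR-125a-5p with miR-99b-5p, though not all on it. They lie far off it for miR-99b-5p with miR-99a-5p and let-7e-5p with miR-99b-5p.

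The let-7 gene between Mir99b and Mir125a did not share the excess. let-7e-5p, a member of the let-7 family known for holding back growth genes, was at 7.46 and 7.36 on these 2 arrays, below all of the other 18 (7.68 to 9.63). Its r with miR-99b-5p was -0.08 over 20 arrays and 0.86 over the 18, and its r with miR-125a-5p was 0.06 over 20 and 0.85 over the 18. The same 2 arrays were low in the endothelial markers, at 9.44 and 9.32 summed against 10.85 to 12.38 on the other 18, and in the red blood cell markers, at 8.73 and 9.21 against 10.71 to 13.09. On both arrays 1 of the 2 miRNAs of each of these lists was above background. The epithelial list was also low, at 6.00 and 6.26 against 6.36 to 11.27, with 0 of its 7 miRNAs above background. Fibroblast markers were low on the second array only (8.76 against 9.12 to 10.24), and neuronal ones on the first only (4.83 against 4.96 to 9.82). The smooth muscle, leukocyte, striated muscle and GC-rich lists were inside the range. The 2 arrays were high in the 4 miRNAs listed for fat, at 12.73 and 12.93 against 9.67 to 12.56. They were also among the 4 arrays with the fewest detected miRNAs, and the part of these in the excess of miR-99b-5p and miR-125a-5p was not tested.

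**Figure D4:**
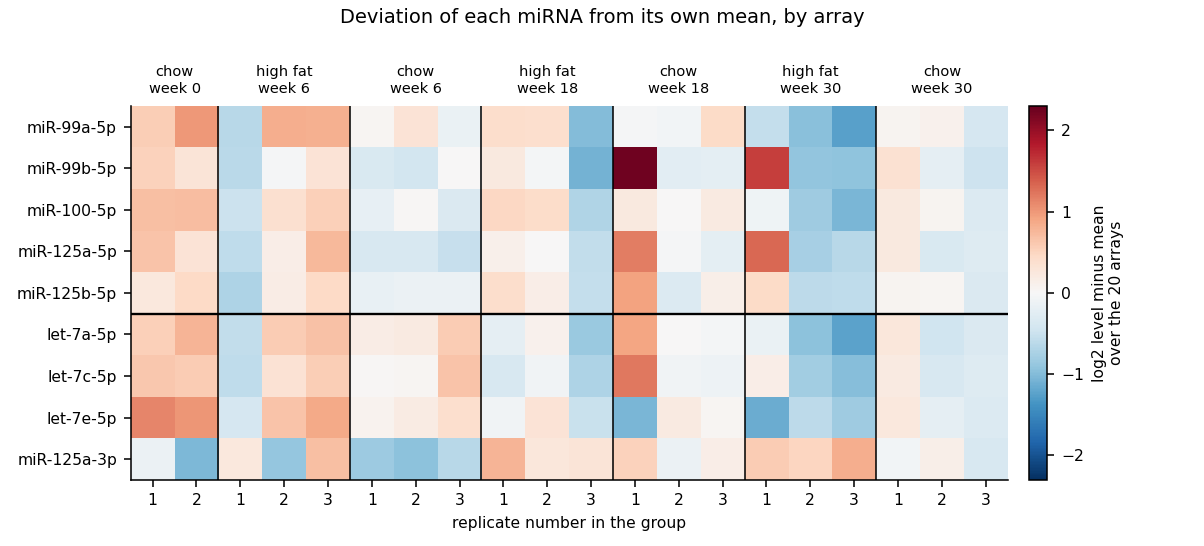
Deviation from the own mean over 20 arrays (colour, log2) of the 5 members and, under the line, of 4 miRNAs of the same hairpins or clusters, with 1 column per array in groups by diet and week. Replicate 1 of week 18 chow and of week 30 high fat is dark red for miR-99b-5p and blue for let-7e-5p, and replicate 3 of week 18 high fat resembles replicates 2 and 3 of week 30 high fat in all 5 members.

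Of the other cluster products, let-7a-5p, let-7c-5p and let-7e-5p were above background on all 20 arrays. let-7a-5p and let-7c-5p have further genes outside these clusters. miR-99a-5p correlated with let-7a-5p at r = 0.81, with let-7e-5p at r = 0.79 and with let-7c-5p, its neighbour on chromosome 16, at r = 0.65. Without the 2 arrays high in miR-99b-5p these were 0.88, 0.88 and 0.81, and left unscaled over 20 arrays 0.94, 0.93 and 0.89. Among other cluster neighbours over 20 arrays, r was 0.79 for miR-100-5p with let-7a-5p. For miR-125b-5p it was 0.75 with let-7a-5p and 0.78 with let-7c-5p. let-7e-5p was 8.59, 8.70 and 8.89 at week 6 in chow, against 9.63 and 9.51 at week 0, lower without overlap like the members, and was not called by limma (adjusted p = 0.262).

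The opposite arms of the hairpins were mostly dim. miR-99a-3p, miR-100-3p and miR-125b-1-3p were above background on 0 of 20 arrays, miR-125b-2-3p on 1 and miR-99b-3p on 18. miR-125a-3p, detected on all 20, correlated with its partner arm miR-125a-5p at r = 0.18 over 20 arrays. That r was 0.63 left unscaled and -0.07 without the 2 arrays high in miR-99b-5p. miR-125a-3p had 7.41, 6.75 and 7.04 at week 18 in chow, against 6.04, 5.94 and 6.25 at week 6. That was a difference of 0.99 (SE 0.41, limma adjusted p = 0.105). Week 6 lay on slide 1 and week 18 chow on slide 2, so time and slide cannot be told apart in it. miR-99b-3p was at 5.37 and 5.88 on the 2 arrays high in miR-99b-5p, against 3.57 to 5.71 on the other 18.

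Among the 187 other miRNAs detected on all 20 arrays, those most like each member by Pearson r of log2 level differed between members. For miR-99a-5p they were miR-26a-5p (0.95), miR-29a-3p (0.92) and miR-151-5p (0.88). For miR-100-5p they were miR-151-5p (0.88), miR-23b-3p (0.87) and miR-26a-5p (0.87), with miR-26a-5p and miR-151-5p common to both. For miR-125a-5p they were miR-139-5p (0.86), miR-30c-5p (0.75) and miR-345-5p (0.74). For miR-125b-5p they were miR-345-5p (0.81), let-7c-5p (0.78) and miR-139-5p (0.76). For miR-99b-5p they were miR-7686-5p (0.79), miR-139-5p (0.79) and let-7b-5p (0.78), all lower than its r with miR-125a-5p. The 3 named for miR-100-5p were the same 3 without the 4 arrays with the fewest detected miRNAs. For miR-99a-5p 2 of the 3 were named again, and for miR-99b-5p, miR-125a-5p and miR-125b-5p none was.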

How the data were processed

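Total RNA of 20 aorta samples was labelled with Cy3 and hybridised to 1-colour Agilent mouse miRNA arrays, per the labels' protocols. Agilent Feature Extraction 11.5.1 is named in the submitters' processing notes. The deposited intensities are linear, already background-subtracted per the file headers, and not scaled between arrays. Of 58594 spots per array, 2164 control spots and 1370 to 2199 outlier spots were left out, and no spot was saturated (0 spots). A miRNA's signal was the mean over its probes of each probe's mean spot. Detection on an array required a probe with at least 0.5 of its spots well above background. For each array the deposited intensities were scaled by their 75th percentile among the 192 miRNAs detected throughout, and values were taken to log2 with a floor of 3.09. limma 3.58.1 (R 4.3.3; lmFit, eBayes) was fitted to all 7 groups (13 residual degrees of freedom) and to 609 miRNAs (those for which some group had all its arrays detected), with 2-sided tests, Benjamini-Hochberg adjustment over all 609 and a threshold of 0.05. The fit was tested on simulated data. Array number, not read depth, sets the precision. Alternatives were scaling, background, floor, filter, weights, slide, replicate number and arrays left out. Named miRNAs were the 5 members, the other products of their hairpins and clusters, miR-351-5p and the 3 most similar to each member. Members, marker lists and comparisons were chosen with earlier results of these data known. Figures were drawn with matplotlib 3.10.9.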

Additional observations from a re-analysis of the deposited data

How the results depend on the processing

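Over 41 alternative settings, 20 of them leaving out 1 array, the 5 members gave 1270 further differences, of which 14 were called and 136 changed sign, and F tests called 6 more. Counts of called members were above the 0 of the equally weighted fit of all arrays in these cases, and the cause was not tested. Array weights gave 4 at week 30 (beside 269 of all 609 miRNAs), 1 for the mean diet effect (beside 189), 2 for chow week 6 minus week 0 (beside 268) and 5 for any difference among the groups (beside 558), and turned miR-99b-5p at week 30 round to -0.78 (limma adjusted p = 0.0369). For chow week 6 minus week 0, scaling to the 75th percentile over all miRNAs gave 4 (beside 88 of 609) and a fit of only the groups compared gave 3 (beside 230 of 609). Without the 4 arrays with the fewest detected miRNAs, 1 was called for any difference (miR-100-5p, beside 192 of 609). Leaving out single arrays called 0 members in any comparison. The replicate numbers were not taken as pairs in the equally weighted fit, although same-numbered diet arrays correlated above 0.1 in 6 of 9 pairs (all 3 at week 30). With the replicate number as a block, 0 members were called in any comparison, and miR-100-5p differed by -0.76 for chow week 6 minus week 0. Of the 15 miRNAs named as most similar, 6 were named again on deviations from the group means and 5 without those 4 arrays. Leaving out the 2 arrays high in miR-99b-5p, the third high fat array of week 18 with the first of week 30, or those 4 for similarity, and taking the brightest probe in every comparison, were chosen after seeing the data. Slide as a fixed block gave no value for the steps from week 6 to week 18 or for any difference among the groups. Groups of 2 or 3 arrays limit every interval.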
